A study of Mus musculus with 2 samples.

Results

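The E2F, RB and DREAM transcription regulators examined here are 10 genes: *E2f1*, *E2f3*, *E2f4*, *E2f8* and *Tfdp1* of the E2F and DP family, *Rb1*, *Rbl1* and *Rbl2* of the pocket protein family, and *Mybl2* and *Foxm1*, which act later in the cycle. They were chosen by symbol, and all 10 are among the 10666 genes of the expression table. Single-cell RNA-seq was performed on neurospheres, floating balls of dividing cells in which neural stem cells and progenitors are kept in culture. They came from the dorsal telencephalon of C57BL/6 wild-type mice of embryonic day 14.5, and the medium held EGF and bFGF at 10 ng/ml each. There are 2 replicate cultures of this 1 condition, with 5748 cells in culture 1 and 7057 in culture 2. No source used here says whether the cultures came from separate embryos, and with 1 condition there is no comparison between groups and no p-value.

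The median depth was 19477 UMIs per cell in culture 1 and 14637 in culture 2, and the cultures share 48 cell barcodes. Of 8 markers of neural stem cells and progenitors, 6 are in the table, and *Sox2* and *Hes5* are not. *Nes*, *Vim*, *Fabp7* and *Slc1a3* were above 0 in between 89.8% and 100% of cells of each culture. *Hes1* was above 0 in 44.5% and 50.5% of cells, and *Pax6* in 21.1% and 23.1%. Of the markers of neurons, the oligodendrocyte lineage and astrocytes, 7 of 14 are in the table, namely *Map2* (77.7% and 63.6% of cells) and *Dcx* (7.34% and 1.56%) for neurons, *Olig2* (97.3% and 91.9%), *Pdgfra* (8.77% and 1.81%) and *Sox10* (4.26% and 0.751%) for the oligodendrocyte lineage, and *Aldh1l1* (43.2% and 28.8%) and *S100b* (18.6% and 6.65%) for astrocytes. None of the 7 markers of endothelium and microglia is in the table used here.

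E2F proteins bind DNA together with a DP partner such as the product of *Tfdp1* and switch on the genes for DNA replication as cells leave G1. The pocket proteins RB, p107 (*Rbl1*) and p130 (*Rbl2*) hold E2F in check until cyclin-dependent kinases phosphorylate them. In resting and early G1 cells p130 or p107 joins E2F4, DP1 and the MuvB core to form the DREAM complex, which represses both S phase and mitotic genes. Later in the cycle the MuvB core instead pairs with B-MYB (*Mybl2*) and then with FOXM1 to switch on mitotic genes, while E2F7 and E2F8 repress the replication genes again. In the developing cortex this pathway sets whether progenitors go on dividing.

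Several of these regulators are known to be transcribed under the control of E2F themselves, and the E2F words near their starts are therefore shown before the expression values. Promoter windows of 250 bases before the transcription start, from RefSeq on GRCm38.p6, were matched for 7 members, and *E2f4*, *Rb1* and *Foxm1* were not matched. E2F words of 8 letters (TTTCCCGC, TTTGGCGC, TTTCGCGC or TTTGCCGC, on either strand) lie in the windows of *E2f3*, *Rbl1* and *Tfdp1*, and in 1.86% of the 32851 promoters of the same length. The same words without their first T, of 7 letters, add *E2f8* and are in 7.89% of promoters. The letters TTGGCGG add *Mybl2* and are in 2.17%. Both of the shorter searches were chosen after the windows had been read. The 120 bases next to the start are printed 5′ to 3′ on the strand of the gene, with an E2F word on either strand in capitals. *Rbl2*, for which cell-cycle position explained the smallest share of variance among the members, holds no E2F word and is shown beside them.

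E2f8, chr7:48881597-48881716, minus strand: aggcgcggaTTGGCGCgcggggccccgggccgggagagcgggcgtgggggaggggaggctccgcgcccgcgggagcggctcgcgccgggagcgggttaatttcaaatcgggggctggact
Mybl2, chr2:163054515-163054634, plus strand: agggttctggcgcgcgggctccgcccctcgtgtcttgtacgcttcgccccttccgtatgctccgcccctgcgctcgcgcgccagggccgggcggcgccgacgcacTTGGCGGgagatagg
Rbl1, chr2:157204535-157204654, minus strand: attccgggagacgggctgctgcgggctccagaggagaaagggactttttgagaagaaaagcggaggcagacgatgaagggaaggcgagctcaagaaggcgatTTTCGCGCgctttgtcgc
Tfdp1, chr8:13338631-13338750, plus strand: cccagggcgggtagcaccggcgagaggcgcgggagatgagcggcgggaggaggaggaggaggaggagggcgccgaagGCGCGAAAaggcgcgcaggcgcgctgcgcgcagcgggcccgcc
E2f3, chr13:29986064-29986183, minus strand: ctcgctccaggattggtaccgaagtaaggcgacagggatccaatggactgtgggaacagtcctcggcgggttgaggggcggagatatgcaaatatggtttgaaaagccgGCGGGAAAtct
Rbl2, chr8:91069937-91070056, plus strand: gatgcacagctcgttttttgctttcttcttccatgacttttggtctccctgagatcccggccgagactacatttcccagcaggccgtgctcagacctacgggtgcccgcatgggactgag

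The first base of the word lies 11 bases before the start in *E2f3*, 15 in *Mybl2*, 18 in *Rbl1*, 43 in *Tfdp1* and 111 in *E2f8*. The start used for *Mybl2* is that of RefSeq, which lies before the start of the gene in GENCODE vM21. Of the CHR words (TTTGAA or TTCGAA, the element that the MuvB core binds, found in 17.1% of promoters), 1 lies 20 bases before the start of *E2f8*, 1 lies 23 bases before that of *E2f3* and 1 lies 201 bases before that of *Rbl2*. The CCAAT box, found in 33.8% of promoters, is in the windows of *E2f3* and *E2f8*, and in *E2f8* it overlaps the E2F word. The RefSeq window of *E2f1* lies inside the gene as GENCODE vM21 draws it and is not printed. It holds none of the E2F, CHR or CCAAT words, although *E2f1* had the highest R² of the members below. A second start of *E2f3* also lies inside the gene and its window holds none of these words, and a second start of *Tfdp1* shares the word shown. These words are a match of letters only, and binding was not measured here.

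Expression was then read along the authors' deposited cell-cycle position, an angle from 0 to 2π that tricycle assigns to each cell. S phase cells lie near 0.75π, cells in G2 and mitosis near and beyond π, and G1 cells around 0. For every gene of the table, 2 harmonics of the position were fitted to log2(value + 1) within each culture. A gene was called as varying with position where this fit explained at least 0.05 of its variance (R²) in both cultures. Of all genes tested, 4.01% were called. Of the 10 members, 6 were called, namely *E2f1*, *Mybl2*, *E2f8*, *Foxm1*, *Tfdp1* and *Rbl1*.

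*E2f1* had an R² of 0.231 in culture 1 and 0.251 in culture 2, and ranked 119 of all genes by the lower of its values. *Mybl2* followed with 0.175 and 0.224 (rank 159) and *E2f8* with 0.137 and 0.128 (rank 206). *Foxm1* had 0.104 and 0.138 (rank 235), *Tfdp1* 0.155 and 0.0990 (rank 242), and *Rbl1*, closest to the threshold from above, 0.0526 and 0.0533 (rank 409). The value of *E2f3*, closest from below, was 0.0398 in culture 1 and 0.0409 in culture 2. *E2f4* had 0.00689 and 0.00416, *Rb1* 0.00174 and 0.00228, and *Rbl2* 0.000681 and 0.000858. The members therefore fell into 6 that varied in both cultures, *E2f3* close to the threshold, and the pocket protein genes *Rb1* and *Rbl2* with *E2f4*, for which position explained under 0.01 of the variance. The median of the lower R² was 0.0758 over the 10 members and 0.00183 over all genes.

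**Figure D1:**
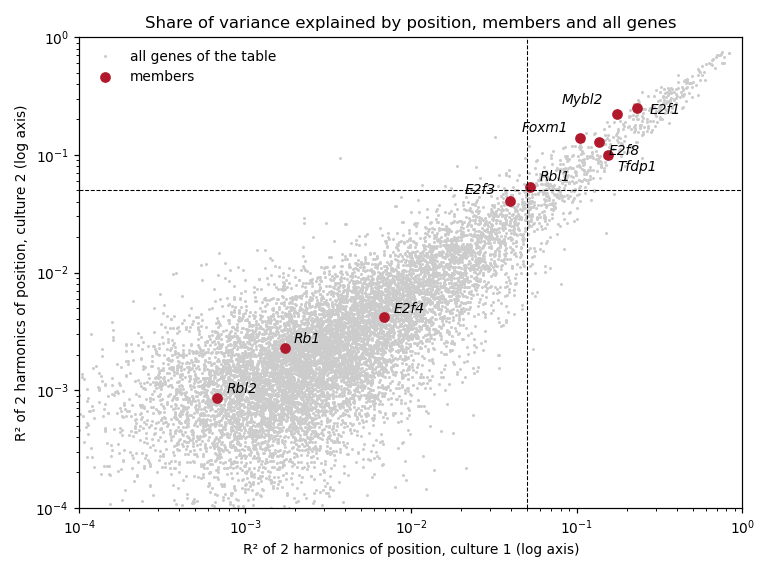
R² of 2 harmonics of the cell-cycle position in culture 1 (x axis) and culture 2 (y axis), both on log axes, for all genes of the table (grey, those below the lower end of either axis not shown) and the 10 members (red), with dashed lines at the threshold of 0.05. The members span the range from *Rbl2* (0.000681 and 0.000858) to *E2f1* (0.231 and 0.251), and *E2f3* and *Rbl1* sit on either side of the threshold.

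At a threshold of 0.02, 7 members were called, *E2f3* being added, against 8.34% of all genes, and at 0.1 there were 4 against 2.25%. In culture 1 alone the 6 members were called against 5.6% of genes and in culture 2 alone against 4.26%. Among genes above 0 in at least 5% of the cells of each culture the 6 members stood against 5.06%. The call of *Rbl1* rests on its margin: its lower R² was 0.0464 with total UMIs and their square in the fit, where 5 members and 3.86% of genes were called, and 0.0459 on linear values, where 5 members and 3.79% of genes were called. Of the members, 7 (*E2f1*, *E2f4*, *E2f8*, *Rbl1*, *Rbl2*, *Foxm1* and *Tfdp1*) are in the cyclone marker list and *E2f8* is in the S list of Seurat. The paper learned the tricycle reference from these neurosphere cells, by PCA of 500 variable genes with a cell-cycle annotation. Whether the members were among those genes is not given in the sources used here. The R² of cell-cycle genes, the members among them, is therefore not independent of the position. A position computed here by PCA of 500 cell-cycle genes without the members had a circular correlation with the authors' position of 0.934 in culture 1 and 0.928 in culture 2. Along that position the 6 members were also called, against 4.04% of genes, with lower R² values of 0.225 for *E2f1*, 0.176 for *Mybl2* and 0.0506 for *Rbl1*. It too comes from cell-cycle genes of the same cells, so it is not an independent check.

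The deposited values carry a further scale that differs by gene and culture, so levels are compared only within a culture. The most frequent value above 0, rescaled to UMIs with the mean depth of all cells of both cultures, was read for each member. It was 0.871 in culture 1 and 1.23 in culture 2 for *E2f8*, a ratio of 1.41, and 0.861 and 1.18 for *Tfdp1*, a ratio of 1.37. For the other 8 members the ratio lay between 0.819 and 1.14. In *Rb1* (0.518 and 0.506), *Mybl2* (0.477 and 0.545) and *Foxm1* (0.382 and 0.313) this most frequent value was itself a fraction of a UMI. There it is not the value of 1 UMI. Ratios between position classes of 1 culture do not depend on this scale. Some values are fractions of a UMI, below 0.75 of one: 63.7% and 67.2% of the values above 0 of *Rb1*, 50.9% and 59.1% of those of *Mybl2*, 49.1% and 42.4% of those of *Foxm1* and 23.9% and 29.2% of those of *Rbl1*. With these values set to 0, an alternative chosen after seeing the data, 5 members were called against 3.87% of genes, *Rbl1* falling to a lower R² of 0.0442.

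*E2f1* encodes the activator E2F that is best known for starting DNA replication. The gene (ENSMUSG00000027490) lies at chr2:154559407-154569892 on the minus strand of GRCm38. Cells were placed in 8 classes of position, each 0.25π wide. In the class from 1.75π to 2π, which holds 1789 cells of culture 1 and 3149 of culture 2, *E2f1* was above 0 in 5.14% of cells (exact 95% interval 4.17% to 6.27%) and 5.62% (4.84% to 6.48%). The share was 14.9% and 18.9% in the class that starts at 0, and 40.0% and 48.8% from 0.25π to 0.5π. It was highest from 0.5π to 0.75π, at 58.0% and 63.7%, and fell to 55.5% and 52.7%, then to 30.3% and 28.8% from π to 1.25π. The same classes were thus highest and lowest in both cultures. The mean linear value in the highest class was 0.887 in culture 1 and 1.23 in culture 2, which is 16.7 ± 0.0452 times (SD, n = 2 cultures) that of the class from 1.75π to 2π.

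*Mybl2* encodes B-MYB, the partner of the MuvB core in S phase. The gene (ENSMUSG00000017861) lies at chr2:163054687-163084688 on the plus strand. It was above 0 in 1.90% and 1.71% of cells from 1.75π to 2π, in 19.5% and 17.6% from 0.25π to 0.5π, and in 41.3% and 45.2% from 0.5π to 0.75π. The share was highest from 0.75π to π, at 47.4% and 46.3%. In that class the mean value was 32.8 ± 7.90 times that from 1.75π to 2π (27.3 in culture 1 and 38.4 in culture 2). From 0.25π to 0.5π it was 9.81 ± 2.15 times that class, close to the 10.0 ± 1.36 times of *E2f1*, whose highest class followed directly.

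*E2f8* encodes a repressor of E2F target genes that binds without a DP partner. The gene (ENSMUSG00000046179, chr7:48866429-48881596, minus strand) was above 0 in 1.62% of cells of culture 1 and 0.476% of culture 2 from 1.75π to 2π, which is 29 and 15 cells. It was highest from 0.75π to π, at 37.6% and 29.5%. The mean value there was 23.3 times that from 1.75π to 2π in culture 1 and 65.9 times in culture 2, and the second ratio rests on those 15 cells. *E2f8* was detected in a smaller share of the cells of culture 2, the shallower library, in each of the 8 classes. From 1.25π to 1.75π these shares rest on 2 to 5 cells per class. The classes kept their order from 0 to 1.25π. The exons of *E2f8* overlap those of *Gm2788* on the opposite strand.

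*Foxm1* encodes a forkhead factor that drives genes of G2 and mitosis. The gene (ENSMUSG00000001517, chr6:128362967-128376146, plus strand) was above 0 in 3.07% and 2.57% of cells from 1.75π to 2π and in 5.07% and 5.64% from 0.25π to 0.5π. Its share was 16.2% and 14.1% from 0.5π to 0.75π, 32.3% and 31.1% in the next class, and highest from π to 1.25π, at 36.1% and 38.9%. In this last class the mean value was 13.2 ± 2.13 times that from 1.75π to 2π. *Foxm1* was the one called member whose highest class began at π. Its exons overlap those of *Gm44596* and *Tex52* on the same strand, and the reads of these genes cannot be told apart there.

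**Figure D2:**
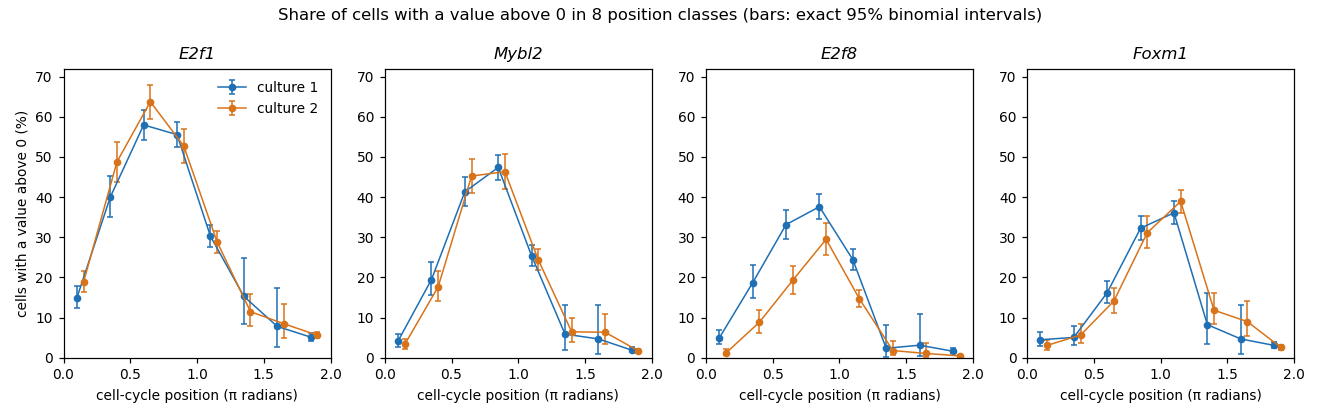
Share of cells with a value above 0 (y axis, %) in 8 classes of cell-cycle position (x axis, π radians) for *E2f1*, *Mybl2*, *E2f8* and *Foxm1* in culture 1 (blue) and culture 2 (orange), with exact 95% binomial intervals as bars. *E2f1* is highest from 0.5π to 0.75π (58.0% and 63.7%), *Mybl2* and *E2f8* from 0.75π to π, and *Foxm1* from π to 1.25π (36.1% and 38.9%).

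*Tfdp1* encodes DP1, the partner without which E2F1 to E2F6 bind DNA poorly. The gene (ENSMUSG00000038482, chr8:13338751-13378448, plus strand) was above 0 in 50.1% of cells of culture 1 and 36.6% of culture 2 from 1.75π to 2π and in 88.8% and 74.7% from 0.75π to π. The mean value in the higher class was 2.75 ± 0.0447 times that in the lower one. *Tfdp1* thus stayed detected in many cells of every class, unlike *E2f1*, *Mybl2*, *E2f8* and *Foxm1*, whose shares from 1.75π to 2π lay between 0.476% and 5.62%.

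*Rbl1*, which encodes p107, was the one pocket protein gene that was called. The gene (ENSMUSG00000027641, chr2:157145893-157204534, minus strand) was above 0 in 2.52% and 1.71% of cells from 1.75π to 2π and in 23.6% and 19.4% from 0.75π to π, and the mean value was 11.1 ± 2.66 times higher in the latter class. In the intermediate classes it was above 0 in 16.5% and 13.2% of cells from 0.25π to 0.5π, and in 17.3% and 12.6% from 0.5π to 0.75π. *Rb1* (ENSMUSG00000022105, chr14:73183673-73325822, minus strand), the founding member of the family, was above 0 in 11.9% and 12.6% of cells from 1.75π to 2π and in 16.3% and 19.3% from π to 1.25π, its highest class in both cultures. *Rbl2* (ENSMUSG00000031666, chr8:91070057-91123844, plus strand), which encodes p130, was above 0 in 5.98% and 4.92% of cells from 1.75π to 2π. The highest share of *Rbl2* was 9.96% from π to 1.25π in culture 1 and 7.69% from 0.75π to π in culture 2. For *Rb1* and *Rbl2* the means of the classes from 0.25π to 1.25π lay between 0.827 and 1.40 times that from 1.75π to 2π. From 1.25π to 1.5π the ratios were 0.690 and 1.28 for *Rb1* and 0.379 and 1.01 for *Rbl2*. In culture 1 these rest on 6 and 2 cells above 0. The exons of *Rb1* overlap *Lpar6* and *Rcbtb2*, and those of *Rbl2* overlap *Aktip* and *Gm45464*, all on the opposite strand.

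*E2f3*, a second activator E2F, was above 0 in 12.7% and 11.2% of cells from 1.75π to 2π, in 36.0% and 27.2% from 0.25π to 0.5π and in 33.3% and 32.8% from 0.5π to 0.75π. The gene (ENSMUSG00000016477) lies at chr13:29906575-29986063 on the minus strand. Its mean value from 0.5π to 0.75π was 3.09 ± 0.179 times that from 1.75π to 2π, against 16.7 for *E2f1* over the same classes. *E2f4* (ENSMUSG00000014859, chr8:105297663-105305370, plus strand), the E2F of the DREAM complex, was above 0 in 34.9% and 31.9% of cells from 1.75π to 2π and in at most 49.7% and 42.3%, from 0.75π to π. Its mean value there was 1.25 ± 0.0234 times that from 1.75π to 2π. Of the 4 members whose products can be subunits of DREAM, *Tfdp1* and *Rbl1* were called and *E2f4* and *Rbl2* were not.

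Depth varied along the same position. The median number of UMIs per cell was highest from 0.75π to π in culture 1 (22966.5) and from π to 1.25π in culture 2 (17813), and lowest from 1.25π to 1.5π in both (14111 and 11882). The values are normalized for depth but shares of cells above 0 rise with it, and thinning cells to 1 depth was not possible because the values are not counts. Within the cells between the quartiles of total UMIs of their culture, an alternative chosen after seeing the data, the 6 members were called again against 3.89% of all genes. There *E2f1* was above 0 in 57.9% and 63.5% of cells from 0.5π to 0.75π, *Mybl2* in 46.4% and 49.2% from 0.75π to π and *Foxm1* in 34.0% and 36.2% from π to 1.25π. Each of these shares lay within the exact interval of the share over all cells. That share includes the same cells, so this closeness is not an independent check on depth. The ratio of class means moved more for *Mybl2*, to 49.8 ± 22.9 (33.6 and 66.0) from 32.8 over all cells. No cells known to lack these genes were identified here, so the part of free RNA in the low shares from 1.75π to 2π was not tested.

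**Figure D3:**
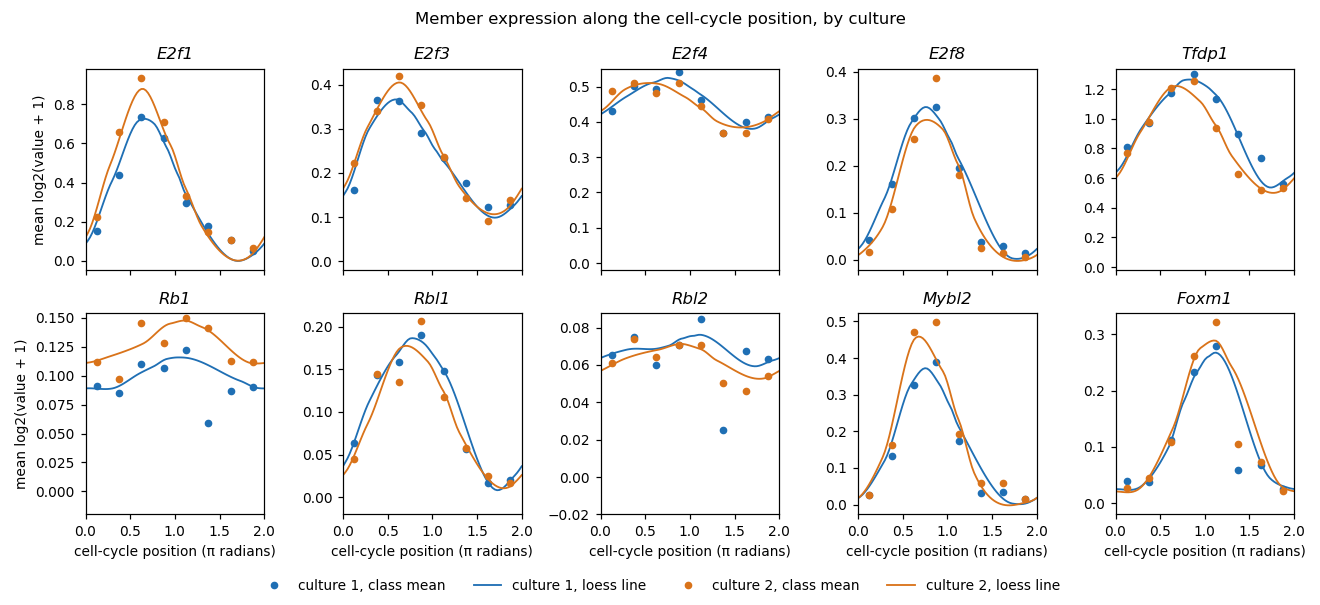
Mean log2(value + 1) of each member (y axis, its own scale in each panel) along the cell-cycle position (x axis, π radians) in culture 1 (blue) and culture 2 (orange), with class means as points and periodic loess lines at a span of 0.3. *E2f1*, *Mybl2*, *E2f8*, *Rbl1* and *Tfdp1* have their line maximum between 0.64π and 0.825π in each culture and *Foxm1* at 1.115π and 1.105π, and the scale of a panel can differ between cultures as described for *E2f8* and *Tfdp1*.

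Periodic loess lines with a span of 0.3 gave the order of the maxima. On the tripled data each local fit at this span takes in 90% of the cells, so the lines are very smooth. In culture 2 those of *Mybl2*, *Rbl1* and *Tfdp1* were highest before 0.75π, where their highest class starts. Among the 6 called members the line of *E2f1* peaked first, at 0.655π and 0.64π in cultures 1 and 2. The maxima of *Mybl2* (0.755π and 0.68π), *E2f8* (0.76π and 0.77π), *Rbl1* (0.77π and 0.71π) and *Tfdp1* (0.825π and 0.68π) came next. *Rbl1* and *Tfdp1* overlapped both of the others and each other. *Mybl2* preceded *E2f8* in both cultures, in culture 1 by 1 point of the grid, and with a span of 0.1 it followed *E2f8* in culture 1 (0.805π against 0.785π). *Foxm1* was last at 1.115π and 1.105π, apart from the other 5 in both cultures. Maximum minus minimum of the line was 0.73 and 0.88 on the log2 scale for *E2f1*, 0.37 and 0.46 for *Mybl2*, 0.73 and 0.72 for *Tfdp1*, 0.32 and 0.30 for *E2f8*, 0.24 and 0.27 for *Foxm1* and 0.18 and 0.17 for *Rbl1*. On log2(value + 1) such differences are small where most values are 0, and they are not folds. The line of *E2f3*, which was not called, was highest before that of *E2f1*, at 0.59π and 0.63π, with a difference of 0.27 and 0.30.

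A narrower span of 0.1 keeps more of the shape, and on it the rise of each gene was read as the position where the line passed the midpoint between its minimum and maximum. *Tfdp1* rose at 0.105π and 0.20π in cultures 1 and 2, *Rbl1* at 0.265π and 0.315π and *E2f1* at 0.35π and 0.255π. *E2f8* followed at 0.455π and 0.535π and *Mybl2* at 0.52π and 0.485π, and *Foxm1* rose last at 0.74π and 0.755π. The ranges of *Rbl1* and *E2f1* overlapped, as did those of *E2f8* and *Mybl2*, while the steps from *Tfdp1* to these, on to *E2f8* and *Mybl2*, and on to *Foxm1* were in the same direction in both cultures. On the falling side, *E2f1* passed its midpoint at 1.015π and 1.01π and *Mybl2* at 1.045π and 1.04π. *E2f8* did so at 1.13π and 1.11π, *Rbl1* at 1.175π and 1.16π, *Foxm1* at 1.265π and 1.32π, and *Tfdp1* at 1.27π in culture 1, after *Foxm1*, and 1.165π in culture 2, before it. The falls beyond 1.25π lie where cells are few, with 85 and 279 cells from 1.25π to 1.5π. There the line also draws on cells of neighbouring classes, and the positions are less certain. At this span the maxima of *Rbl1* (0.965π and 0.90π) and *Foxm1* (1.045π and 1.055π) lay closer to each other than at a span of 0.3. The maximum of *Tfdp1* was at 0.96π and 0.79π, and that of *E2f1* at 0.75π and 0.655π.

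**Figure D4:**
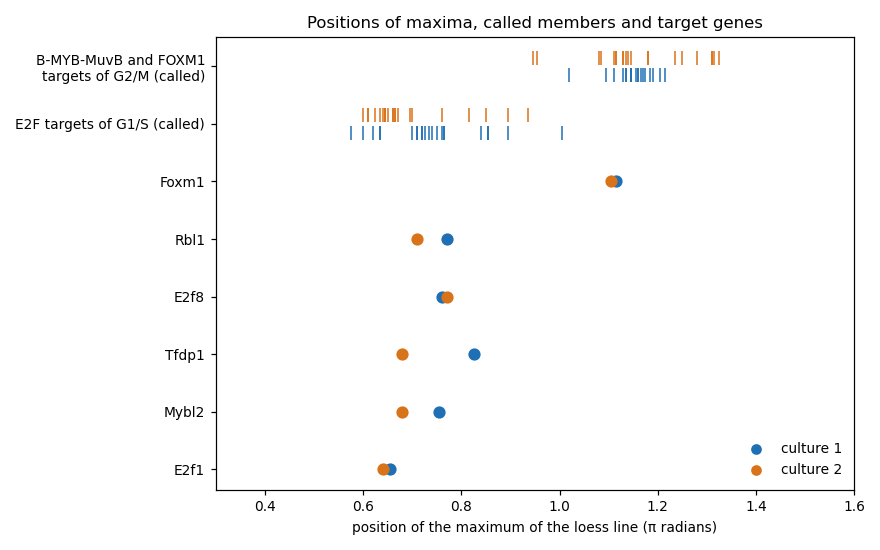
Position of the maximum of the loess line at a span of 0.3 (x axis, π radians) for the 6 called members (circles) and for the called E2F targets of G1/S and B-MYB-MuvB and FOXM1 targets of G2/M (ticks), in culture 1 (blue) and culture 2 (orange). *E2f1* (0.655π and 0.64π), *Mybl2*, *Tfdp1*, *E2f8* and *Rbl1* lie within the range of the G1/S targets and *Foxm1* (1.115π and 1.105π) within that of the G2/M targets.

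The same measures were taken for the genes that these regulators act on, from lists written with earlier results of these data known. Of the E2F targets of G1/S, 22 of the 24 in the table were called, led by *Rrm2* (ribonucleotide reductase), *Hells* (a chromatin remodeller) and *Pcna* (the sliding clamp of DNA polymerase), with lower R² values of 0.600, 0.472 and 0.430. The median position of their maxima was 0.73π in culture 1, with a range from 0.575π to 1.005π, and 0.66π in culture 2, from 0.60π to 0.935π. They rose at a median of 0.2475π in culture 1, with a range from 0.11π to 0.605π, and 0.275π in culture 2, from 0.07π to 0.525π. *E2f8* and *Mybl2* rose later than these medians in both cultures, and *E2f1* rose later than the median in culture 1, at 0.35π, and earlier than it in culture 2, at 0.255π. Of the B-MYB-MuvB and FOXM1 targets of G2/M, 21 of the 21 in the table were called, led by *Ube2c*, *Cenpf* and *Cenpa*, with values of 0.725, 0.713 and 0.702. The median position of their maxima was 1.145π and 1.14π. They rose at a median of 0.88π in culture 1, with a range from 0.625π to 1.015π, and 0.84π in culture 2, from 0.63π to 0.985π. These medians are later than *Foxm1* (0.74π and 0.755π) in both cultures. Not all of these genes rose later, and *Top2a*, *Cdk1* and *Aurkb* rose before *Foxm1* in both cultures. Many of these targets are in the lists that define cell-cycle positions and stages, and their R² is not independent of the position.

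Among the other E2F and DP genes, 1 of 5 was called, the activator *E2f2* (lower R² 0.0625, in 11.7% and 8.15% of cells). *E2f7*, the close relative of *E2f8*, missed the threshold with 0.0490 in culture 1 and 0.0935 in culture 2 and passed it with log2(value + 0.5) and between the depth quartiles (lower R² 0.0513 and 0.0559), and *E2f5* had 0.0207 and 0.0400. Of the MuvB core and other MYB genes 1 of 7 was called, *Lin54*, the DNA-binding subunit (0.0522), ahead of *Lin9* (0.0369) and *Myb* (0.0214). The call of *Lin54* was lost on linear values (0.0411), with depth in the fit (0.0479) and with fractions of a UMI set to 0 (0.0470). Of the corepressors that bind pocket proteins 1 of 8 was called, the histone methyltransferase *Suv39h1* (0.0624), ahead of *Rbbp7* (0.0407) and *Hdac2* (0.0145), and its call was lost in cells between the depth quartiles (0.0479). The median lower R² of these lists was 0.0207, 0.0213 and 0.0109.

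Of the cyclins, kinases and inhibitors that act on the pocket proteins, 5 of the 11 in the table were called. *Ccne2* and *Ccne1*, the E-type cyclins that activate CDK2 at the entry to S phase, had lower R² values of 0.258 and 0.237, and *Cdkn2c*, an inhibitor of CDK4 and CDK6, had 0.167. *Cdk2* (0.0954) and *Cdkn1a* (0.0515) were the other called genes. The call of *Cdkn1a* was lost on linear values (0.0484), with log2(value + 0.5) (0.0458) and along the position without the members (0.0368). At a span of 0.3 the loess lines of *Ccne1* (0.72π and 0.625π) and *Ccne2* (0.645π and 0.635π) were highest near that of *E2f1*, and that of *Cdkn2c* at 1.135π and 1.11π, near that of *Foxm1*. The line of *Cdkn1a*, which encodes the p21 inhibitor, was highest at 1.685π and 1.735π, and at 1.905π in both cultures with a span of 0.1. The D-type cyclins *Ccnd1*, *Ccnd2* and *Ccnd3* were not called, with lower values of 0.00815, 0.0189 and 0.0409, and *Ccnd2* reached 0.0804 in culture 2.

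Pairs of members were compared by the Pearson correlation of mean log2(value + 1) over 20 position bins with equal numbers of cells. The bins come from the same libraries and the same positions, so these values are a description. *E2f8* and *Mybl2* had 0.97 in culture 1 and 0.96 in culture 2, *Rbl1* and *Tfdp1* 0.96 and 0.95, and *E2f1* and *Mybl2* 0.95 and 0.91. *Foxm1* had 0.48 and 0.42 with *E2f1*, and its highest value was with *Tfdp1* in culture 1 (0.81) and with *E2f8* in culture 2 (0.74). Pairs with *Rbl2* stayed at or below 0.47 in both cultures.

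Among 422 candidate genes called by the same rule, the patterns most like that of *E2f1* were *Fam111a*, *Mcm3* and *Chaf1a*, each with a correlation of 0.98 in the culture where it was lower. For *Mybl2* they were *Brca1*, *Brip1* and *Cdc45* (each 0.98), and for *E2f8* they included *Ncapg2* and *Lrr1* (each 0.97). The patterns most like *Foxm1* were *Ncapg* (0.99), *Mki67* (0.99) and *Ska1* (0.98), and those most like *Rbl1* were *Dnmt1* (0.98), *Gins4* (0.98) and *Pcna* (0.97). *Tfdp1* was closest to *Pcna* (0.98), *Lig1* (0.97) and *Nup43* (0.97).

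The share of a gene's summed value that lay in cells between 0.5π and 1.25π gives its concentration in the cycle. This range holds 48.1% of the cells in culture 1 and 31.0% in culture 2. They held 89.7% and 83.0% of the summed value of *Mybl2*, 86.0% and 86.6% of that of *E2f8*, 86.3% and 78.9% of that of *Foxm1*, and 80.1% and 64.6% of that of *E2f1*. For *Rbl1* the shares were 76.5% and 64.6%, for *Tfdp1* 64.6% and 46.0%, and for *E2f3* 61.3% and 45.1%. The shares of *Rb1* (54.5% and 36.4%), *E2f4* (51.4% and 32.5%) and *Rbl2* (49.9% and 34.6%) were close to the shares of cells. All of the members but *E2f8* had a higher share in culture 1, which also had more of its cells in this range.

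In the authors' Seurat stages, which do not use the position but rest on cell-cycle genes as well, *E2f1* was above 0 in 7.75% and 8.01% of G1 cells, 52.3% and 52.7% of S cells and 34.4% and 27.0% of G2M cells. *Foxm1* was above 0 in 3.48% and 2.90% of G1 cells, 17.3% and 13.8% of S cells and 35.3% and 32.4% of G2M cells. *Mybl2* was in 37.1% and 33.9% of S cells against 29.3% and 22.5% of G2M cells, and *E2f8*, itself an S gene of Seurat, in 30.5% and 17.3% against 26.2% and 13.0%. The order of *E2f1* in S and *Foxm1* in G2M was thus the same by stage and by position. The authors' SchwabeCC stages leave 2451 and 3151 cells without a stage. Among these stages *E2f1* was highest in G1.S cells (52.1% and 46.5%), followed by S cells (47.0% and 33.2%). The intervals of the 2 shares overlapped in culture 1 (49.1% to 55.0% and 41.8% to 52.4%). By the same stages *Foxm1* was above 0 in 25.1% and 19.4% of S cells, 17.9% and 17.4% of G2 cells and 16.5% and 18.0% of G2.M cells. Its mean value was highest in S cells in culture 1 (0.181, against 0.140 in G2.M cells) and in G2.M cells in culture 2 (0.181, against 0.169 in S cells), and the intervals of the shares of S and G2.M cells overlapped in culture 2 (15.8% to 23.5% and 15.2% to 21.2%). By mean value, the order of these stages thus turned between the cultures. In the cyclone stages *Foxm1* was above 0 in 40.5% and 38.2% of G2M cells, 24.1% and 28.6% of S cells (of only 133 and 56 cells) and 9.88% and 6.85% of G1 cells. *Foxm1* is itself in the cyclone marker list, so these shares are not independent of the stage.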

How the data were processed

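The authors quantified spliced counts with alevin of Salmon 1.3.0 against GRCm38, removed outlying cells, including by doublet score, and rare genes, and name Seurat 3.2.2 in their processing notes. No doublet caller was run here. The labels name version 2 of the Chromium kit, and the paper another. The deposited expression values are a signal normalized for depth, on a linear scale. They are not whole multiples of a UMI, so no count model and no thinning were used. Total UMIs are sums of estimated counts deposited by the authors. The deposited per-cell table also holds position and stages, which are other values.

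Values were transformed as log2(value + 1). R² came from least squares with 2 harmonics of position, per culture, over 10666 genes. Loess lines used tripled data, degree 2 and a span of 0.3, in R 4.3.3. A gene list for a position without the members came from scran 1.30.0 and Seurat 5.3.0. Python 3.11.15, numpy 2.4.6, scipy 1.17.1 and pandas 2.3.3 did the rest. Both steps were tested on simulated data. Symbols and coordinates are those of GENCODE vM21. Symbols were found for 10662 genes. Sequences are from RefSeq.

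The genes named are all 10 members, the 3 with the largest lower R² of each list, and the 3 most like each called member, of which 1 is not reported here. Further list genes (*Cdk2*, *Cdkn1a*, the D-type cyclins, *Top2a*, *Cdk1* and *Aurkb*) and *Pax6* and other markers are given for completeness, and were chosen after their values were seen. The members and lists were chosen with earlier results of these data known. Spread is the SD between 2 cultures. Intervals are exact 95% binomial intervals and cover counting error only. Alternatives were other thresholds, transformations, spans, positions, depth in the fit, and each culture left out.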

Additional observations from a re-analysis of the deposited data

How the results depend on the processing

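The count of 6 called members was 7 at an R² threshold of 0.02 and 4 at 0.1, 5 on linear values, 5 with depth in the fit and 5 with fractions of a UMI set to 0, and 6 under each of the other alternatives and in each culture alone. The 51 called genes of the 6 lists moved between 41 and 61. The median position of the maximum of the called members, 0.7925π, moved to 0.8625π with a span of 0.1 and lay between 0.695π and 0.765π in single cultures. The median of maximum minus minimum, 0.37, was 0.43 with a span of 0.1, 0.24 with a span of 0.5, 0.57 with log2(value + 0.5), and 0.35 to 0.38 in single cultures. The median difference between the highest and lowest share of cells, 28.0 percentage points over the 10 members, was 29.5 in cells between the depth quartiles, and 27.0 to 29.0 in single cultures. The median ratio of highest to lowest class mean was 14.9, and 14.2 to 15.7 in single cultures. Line differences with log2(value + 0.5) are on another scale, and a wider span gives a smoother line, so these values are not like for like. The cause of the other shifts was not tested. For single members, 17 positions of maxima and 28 line differences moved by more than the spread of the cultures and 33 and 12 did not. The 28 include the change of scale with log2(value + 0.5), where every member moved. Ratios of *Rb1* and *Rbl2* turned between the cultures in some classes, as from 0.5π to 0.75π for *Rbl2* (0.908 and 1.16). No paired analysis was possible because there is 1 condition. The values of *Rbl1*, *Rbl2* and *E2f8* rest on the fewest cells, and the classes from 1.25π to 1.75π hold 85 and 64 cells in culture 1.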
